A study of Mus musculus with 6 samples.

Results

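A group of 6 genes whose proteins sit in the red cell membrane was followed here in whole-lung RNA: Kel, Xk, Ermap, Btnl10, Rhag and Rhd, that is 6 of the 25965 genes listed in the deposited table. They were named one by one, and rows were matched on the deposited gene symbol, which found all 6. They had been proposed with their difference between toxin-treated and vehicle-treated mice already known, so that difference is given as a description, without p-values. Counts of these genes past the threshold of the test over all genes, or with groups that do not overlap, are printed beside the share of all genes and support nothing. The lists of other genes were also chosen with earlier results of these data known, so their counts and p-values are descriptions too.

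Blood group genes encode membrane proteins, or make the sugars, that carry the antigens of red cells. Kell is a zinc endopeptidase that is held to the multi-pass protein XK by a disulfide bond. The Rh protein and its glycosylated partner RhAG form a channel-like complex tied to the band 3 anion exchanger. ERMAP carries the Scianna antigens in humans, and belongs, like the butyrophilins, to the immunoglobulin superfamily. These genes are switched on while red cell precursors mature, mostly in bone marrow and, in mice, spleen, where the transcription factors GATA1 and KLF1 act on many red cell genes.

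Bulk messenger RNA was measured in lungs of 6 chimeric mice of the genotype ZBTB46 DTR, in which the diphtheria toxin receptor follows Zbtb46, the gene of a transcription factor that marks classical dendritic cells and is also used by endothelium. The 3 DT mice received diphtheria toxin, first at 40 ng/g 1 day ahead of hypoxia and later at 8 ng/g at intervals of 3 days, 3 doses in total. The 3 PBS mice received vehicle. Every mouse breathed 10% oxygen for 7 days, and the comparison asked what changes in the hypoxic lung when dendritic cells are removed. Mouse age, the donor and host of the chimeras and the cells the host kept were not given in the sources used here. No mice without the receptor received toxin, so what the toxin does by itself and what follows from losing receptor-bearing cells cannot be told apart.

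Depth was 16766386 to 18831937 reads in the DT libraries and 18027303 to 19084657 in the PBS libraries, and levels are read counts scaled to library depth (RPM). Zbtb46 itself had a level of 84.4 ± 2.62 RPM in DT and 99.0 ± 9.52 RPM in PBS (SD, n = 3 each; limma adjusted p = 0.411). Xcr1, a chemokine receptor of cross-presenting dendritic cells, had a level of 3.46 ± 3.12 RPM in DT and 14.1 ± 8.45 RPM in PBS, and the groups overlapped. All 8 dendritic cell markers tested had a negative fold change, while 0 passed the test over all genes (limma; 6 of 8 at an unadjusted p under 0.05, and 0 and 4 by limma-voom). PBS mouse 1 lay near the DT lungs for several of them, with 4.55 RPM of Xcr1 against 17.3 and 20.5 RPM in PBS mice 2 and 3. Without PBS mouse 1 the median log2 fold change of the 8 was -1.72, where it was -1.16 with all mice, and 1 marker was called lower. That mouse was also the highest PBS lung for Kel, Btnl10 and Rhag, and the part of this in their difference was not tested. All 10 lung markers had reads, but Sftpc, the surfactant protein C gene of alveolar type 2 cells and usually among the most abundant lung transcripts, stood at 8.78 ± 0.602 RPM in DT and 9.04 ± 0.12 RPM in PBS. The highest level of any gene was 889 RPM. Whether levels of different genes in this table follow transcript abundance was not tested, and differences between genes are given for these values only. Within the 6 genes, the densest library held 0.0934 reads per exonic base, against 0.166 for Sftpc.

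The DNA just before each gene start is shown because in 5 of the 6 genes the DT and PBS lungs did not overlap, and in the other, Xk, they did. Over all 16708 genes tested the groups did not overlap for 14.4%, in either direction, and nothing is read from the 5. The sequences are the 250 bases before the start site in RefSeq (GRCm38.p6, the mm10 assembly), read 5′ to 3′ on the gene's strand. Kel lies on the minus strand (window chr6:41704326-41704575) and so does Ermap (chr4:119189996-119190245). Xk (chrX:9272534-9272783), Btnl10 (chr11:58917658-58917907), Rhag (chr17:40810899-40811148) and Rhd (chr4:134864286-134864535) lie on the plus strand. Capitals mark GATAA or its reverse complement TTATC, the core that GATA factors read, and CACCC or its reverse complement GGGTG, the core of the box that KLF1 reads. All windows but that of Xk hold both kinds.
Kel: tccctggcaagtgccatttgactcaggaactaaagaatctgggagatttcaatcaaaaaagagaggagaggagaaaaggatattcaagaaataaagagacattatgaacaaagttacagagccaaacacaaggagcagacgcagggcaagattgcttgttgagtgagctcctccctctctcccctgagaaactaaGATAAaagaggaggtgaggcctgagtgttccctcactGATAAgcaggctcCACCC
Xk: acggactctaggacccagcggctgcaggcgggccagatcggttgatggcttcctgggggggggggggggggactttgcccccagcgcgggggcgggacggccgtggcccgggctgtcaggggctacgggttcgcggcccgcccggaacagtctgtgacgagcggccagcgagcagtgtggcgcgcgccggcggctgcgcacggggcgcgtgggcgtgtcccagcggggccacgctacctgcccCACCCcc
Ermap: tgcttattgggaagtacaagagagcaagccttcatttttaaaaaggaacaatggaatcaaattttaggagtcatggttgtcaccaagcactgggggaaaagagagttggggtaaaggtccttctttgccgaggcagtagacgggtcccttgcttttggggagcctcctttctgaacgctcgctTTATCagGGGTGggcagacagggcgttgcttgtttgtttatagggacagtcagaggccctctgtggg
Btnl10: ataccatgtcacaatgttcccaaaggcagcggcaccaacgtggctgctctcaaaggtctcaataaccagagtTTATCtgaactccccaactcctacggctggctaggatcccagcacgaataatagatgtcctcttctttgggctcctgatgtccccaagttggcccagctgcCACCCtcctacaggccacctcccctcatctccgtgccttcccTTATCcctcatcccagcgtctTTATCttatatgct
Rhag: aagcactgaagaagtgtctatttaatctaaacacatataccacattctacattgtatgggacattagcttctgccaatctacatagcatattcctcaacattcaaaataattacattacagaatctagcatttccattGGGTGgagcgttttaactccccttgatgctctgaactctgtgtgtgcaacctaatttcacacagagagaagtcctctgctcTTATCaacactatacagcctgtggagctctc
Rhd: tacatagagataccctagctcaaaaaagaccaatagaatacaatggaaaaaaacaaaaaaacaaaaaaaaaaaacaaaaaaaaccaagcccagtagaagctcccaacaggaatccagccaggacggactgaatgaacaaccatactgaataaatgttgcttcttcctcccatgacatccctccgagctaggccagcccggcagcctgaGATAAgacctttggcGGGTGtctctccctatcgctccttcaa
RefSeq lists a second start for Btnl10, and the one that matches the deposited gene start is shown. The deposited starts of the other genes lie 0 to 28 bases from the RefSeq start.

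GATAA in either orientation was found in 5 of the 6 windows, and CACCC in all 6. Over all 32851 windows of this length, 22.6% held GATAA, 52.0% held CACCC and 10.1% held both. Kel had GATAA 55 and 18 bases before its start, and Btnl10 had it 178, 35 and 14 bases before. Ermap, Rhag and Rhd each had it once, at 67, 31 and 42 bases before the start. The Xk window held no GATAA. That window was also the richest in G and C of the 6, at 77.2% with 30 CG steps, a G and C content that 2.58% of all windows reached. The other 5 windows ran from 39.2% in Rhag to 52.8% in Btnl10, with 1 to 6 CG steps, and the mean over all windows was 53.2%. A match of these letters is a description, and neither a match nor its absence shows whether a factor binds.

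Of the 6 genes, 5 were higher in each DT lung than in any PBS lung, by 3.20-fold or more between the nearest mice, and the groups overlapped for Xk. All DT lungs lay above all PBS lungs for 7.65% of the 16708 genes tested. Since the 6 genes were chosen on this contrast, nothing is read from the count of 5. In bulk lung RNA, more cells of a type and more RNA per cell cannot be told apart. The Kell pair shows the split. Kel (ENSMUSG00000029866, mm10 chromosome 6, 41686330 to 41704339), the peptidase gene, had levels of 15.4, 9.08 and 13.4 RPM in DT mice 1 to 3, against 2.61, 0.640 and 1.10 RPM in PBS mice 1 to 3. DT mouse 2 was the lowest of the DT lungs and still lay above PBS mouse 1, the highest PBS lung, by 3.48-fold. The mean was 12.7 ± 3.25 RPM in DT and 1.45 ± 1.03 RPM in PBS, 8.73-fold higher in DT, with a log2 fold change of 2.53 ± 0.30 (SE) on the log2(RPM + 1) scale. Without each mouse in turn that fold change lay between 2.28 and 2.85.

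Xk (ENSMUSG00000015342, chromosome X, 9272756 to 9313250), the partner to which Kell is bonded, had levels of 11.2, 12.1 and 10.7 RPM in DT mice 1 to 3, against 9.04, 9.91 and 12.1 RPM in PBS mice 1 to 3. The groups overlapped, and the mouse that was lowest among PBS lungs for Xk, PBS mouse 1, was the highest of them for Kel. The means were 11.3 ± 0.683 RPM in DT and 10.3 ± 1.55 RPM in PBS, and the log2 fold change was 0.13 ± 0.12, with an interval of -0.16 to 0.41 (95%). In every library at least 163 reads were counted for Xk, so its level was as well sampled as that of Kel in DT lungs (171 to 259 reads) and better than that of Kel in PBS lungs (12 to 47 reads). Per exonic kb, the ratio of Kel to Xk levels was 2.54, 1.38 and 2.30 in DT lungs and 0.528, 0.118 and 0.167 in PBS lungs. Xk is also transcribed outside the red cell line, in muscle and brain among other tissues, and which lung cells gave its reads was not measured.

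The pair of immunoglobulin superfamily genes showed the same separation. Ermap (ENSMUSG00000028644, chromosome 4, 119175457 to 119190011), the erythroblast membrane-associated protein gene, had levels of 29.0, 16.4 and 20.4 RPM in DT mice 1 to 3, against 3.49, 2.50 and 4.03 RPM in PBS mice 1 to 3. Again DT mouse 2 was the lowest of the DT lungs, and the groups did not overlap. The means were 21.9 ± 6.43 RPM in DT and 3.34 ± 0.776 RPM in PBS, 6.56-fold higher in DT (log2 fold change 2.38 ± 0.22).

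Btnl10 (ENSMUSG00000020490, chromosome 11, 58917908 to 58927158), a butyrophilin-like gene, had levels of 21.1, 10.9 and 15.7 RPM in DT mice 1 to 3, against 2.55, 0.426 and 0.996 RPM in PBS mice 1 to 3. DT mouse 1 was the highest and PBS mouse 2, with 8 reads, the lowest of the 6 lungs. The means were 15.9 ± 5.06 RPM in DT and 1.32 ± 1.10 RPM in PBS, 12.0-fold higher in DT and the largest of the 6 differences (log2 fold change 2.92 ± 0.34, or 2.62 without PBS mouse 2 to 3.28 without PBS mouse 1). On the deposited log2 scale, with nothing added to the RPM, it was 3.90 ± 0.58. Per exonic kb, Btnl10 stood at 0.800, 0.735 and 0.846 of the Ermap level in DT lungs and at 0.805, 0.188 and 0.272 of it in PBS lungs, so PBS mouse 1 had the proportion of the DT lungs at a far lower level of both genes.

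The Rh pair had the lowest mean of the 5 per exonic kb in DT lungs, although Rhag lay above Btnl10 in DT mice 2 and 3. Rhag (ENSMUSG00000023926, chromosome 17, 40811126 to 40840754), whose product brings the Rh protein to the membrane and conducts ammonia, had levels of 7.34, 5.47 and 7.78 RPM in DT mice 1 to 3, against 1.66, 0.586 and 1.15 RPM in PBS mice 1 to 3. It was the one gene of the 5 for which DT mouse 3, not DT mouse 1, was highest. The means were 6.86 ± 1.23 RPM in DT and 1.13 ± 0.539 RPM in PBS, 6.05-fold higher in DT (log2 fold change 1.90 ± 0.22).

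Rhd (ENSMUSG00000028825, chromosome 4, 134864536 to 134896172), the mouse counterpart of the gene for the human D antigen, had levels of 4.89, 3.19 and 3.92 RPM in DT mice 1 to 3, against 0.666, 0.586 and 0.996 RPM in PBS mice 1 to 3. The groups did not overlap, although each PBS value rests on 11 to 19 reads. The means were 4.0 ± 0.855 RPM in DT and 0.749 ± 0.217 RPM in PBS, 5.34-fold higher in DT (log2 fold change 1.51 ± 0.18, and 2.43 ± 0.31 on the deposited scale, where the pseudocount does not shrink it). Per exonic kb, Rhag stood at 1.02, 1.17 and 1.35 times the Rhd level in DT lungs and at 1.70, 0.681 and 0.789 times in PBS lungs. These ratios overlapped between the groups.

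**Figure D1:**
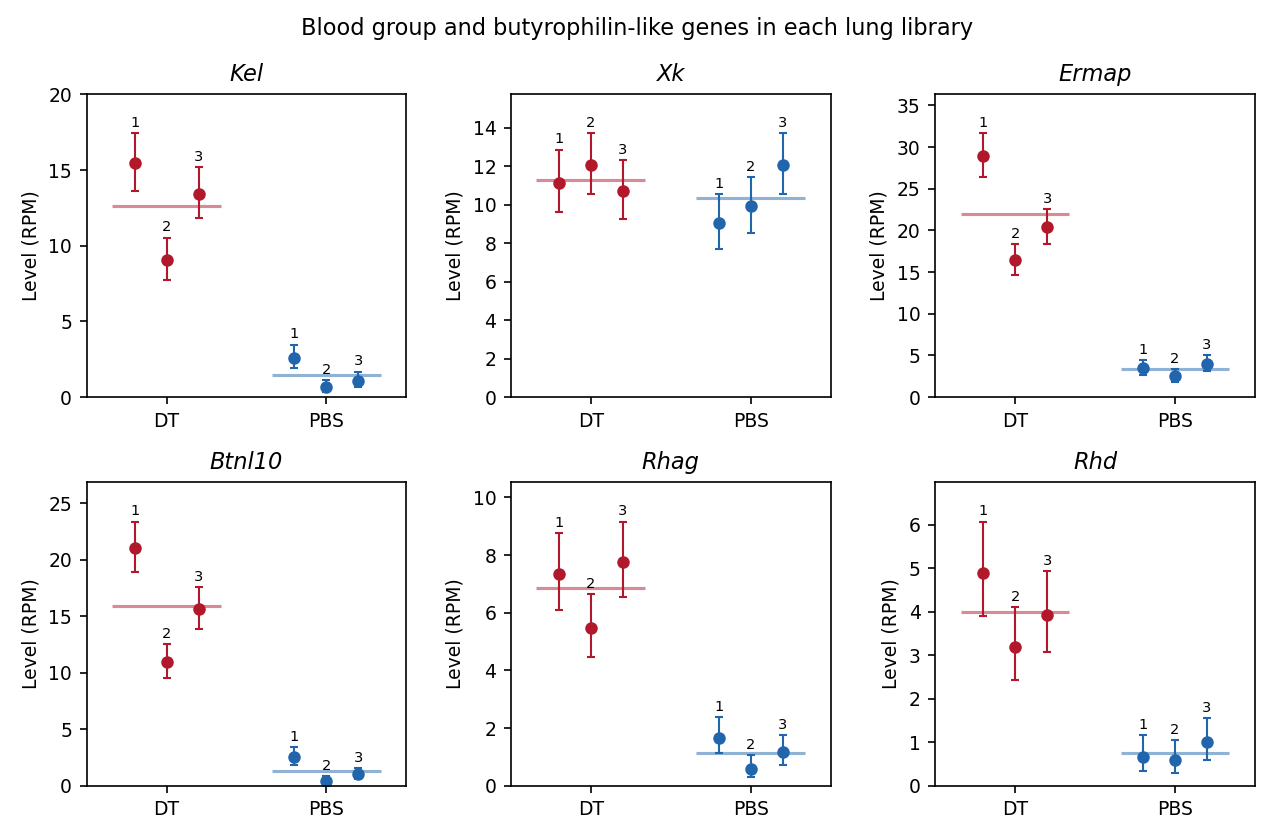
Level of each gene in RPM (vertical axis, from 0, a different scale for each gene) in the 3 DT and the 3 PBS lungs. Points are single mice, numbered, bars are exact 95% Poisson intervals that cover counting error only, and horizontal lines are group means; for Kel, Ermap, Btnl10, Rhag and Rhd every DT lung lies above every PBS lung, and for Xk the groups overlap.

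Over all 16708 genes tested, 46 were higher in DT by the limma test (adjusted p below 0.05), which is 0.275% of them, and 1 was lower (0.00599%), so 0.281% passed in either direction. The DT lungs all lay above the PBS lungs for 7.65% of genes and all below them for 6.79%, or 14.4% in all. Without DT mouse 1 no gene was higher and without DT mouse 3 there were 14, while 90 genes were lower without DT mouse 2 and 10 without PBS mouse 1, and 0 without DT mouse 1, DT mouse 3 or PBS mouse 3. Of the 6 genes, 5 met both criteria (Kel, Ermap, Btnl10, Rhag and Rhd) and 1, Xk, met neither. Because the genes were chosen on this contrast, nothing is read from that count or from those without a mouse. The median log2 fold change of the 6 was 2.14, beside 0.00 over all genes tested. Without DT mouse 1, 0 of the 6 passed, and without DT mouse 3 only Ermap did. Their log2 fold changes stayed between 1.38 for Rhd and 2.71 for Btnl10 without DT mouse 1, Xk aside (0.13).

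**Figure D2:**
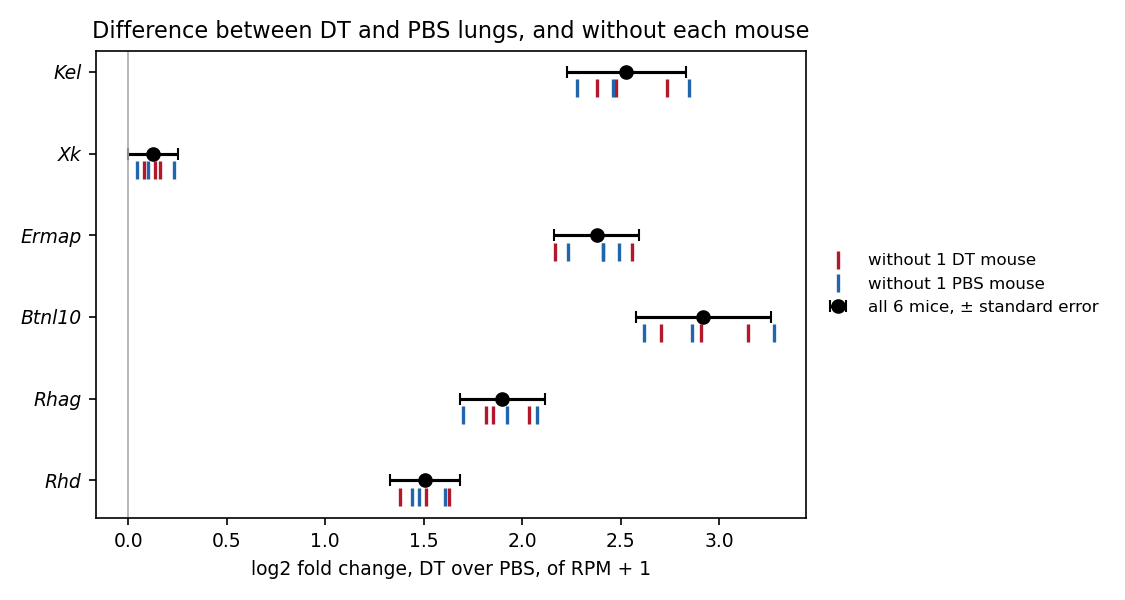
Log2 fold change of RPM + 1, DT over PBS (horizontal axis), for each gene. Black points and bars are the value over all 6 mice with its standard error, and coloured ticks are the values without 1 DT mouse (red) or without 1 PBS mouse (blue); Xk stays between 0.04 and 0.23 and the lowest value of any other gene is 1.38, for Rhd.

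The 5 genes also shared much of their order within each group, which the difference between groups does not fix. DT mouse 2 was the lowest DT lung for all 5, and PBS mouse 2 was the lowest PBS lung for all 5. For Rhd the PBS order rests on 11 reads in PBS mouse 2 against 12 in PBS mouse 1, which counting error does not separate. DT mouse 1 was the highest for 4 of them. In PBS the highest lung was mouse 1 for Kel, Btnl10 and Rhag and mouse 3 for Ermap and Rhd. Xk had another order, with DT mouse 2 the highest and DT mouse 3 the lowest of the DT lungs, and PBS mouse 3 the highest and PBS mouse 1 the lowest of the PBS lungs. The libraries share their preparation and depth within a mouse. Neither a p nor a share of all genes is attached to these orders, so nothing is read from them.

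The spread between the 3 mice of a group was set beside the spread that counting gives if reads are independent molecules, as a description. In DT lungs the coefficient of variation was 25.7% for Kel and 31.9% for Btnl10, where counting alone gives 6.77% and 6.10%. In PBS lungs it was 71.0% for Kel and 83.1% for Btnl10, where counting gives 22.5% and 25.8%. Rhd in PBS lungs varied by 29.0%, where counting gives 27.5%. Xk varied by 6.04% in DT lungs, where counting gives 7.03%.

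**Figure D3:**
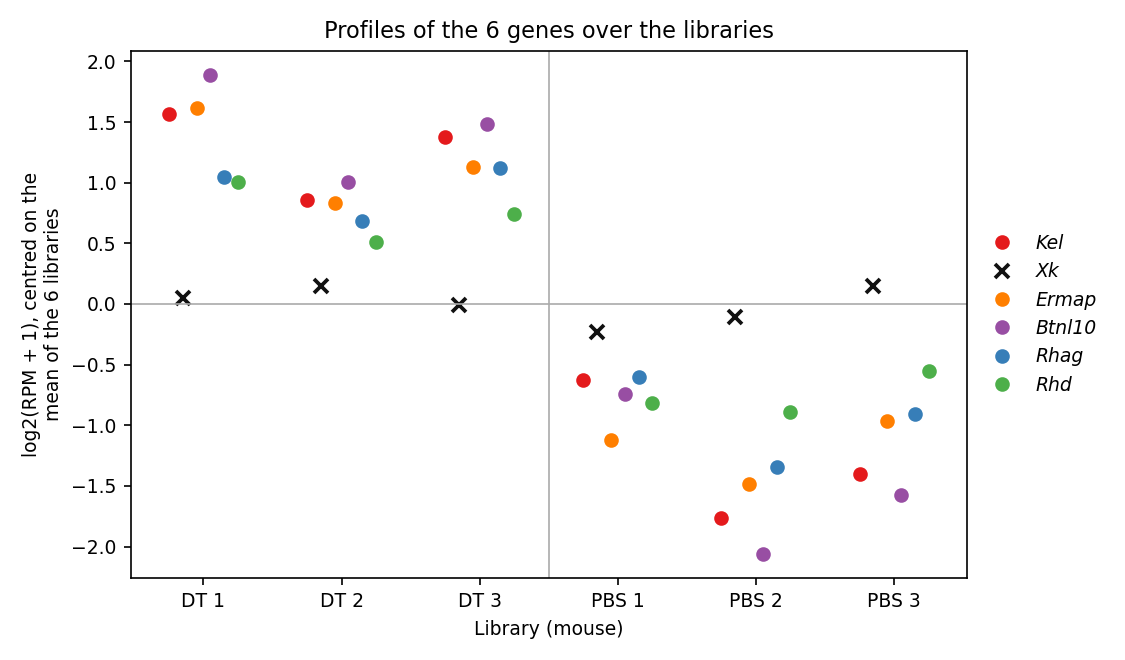
Level of each gene in each library as log2(RPM + 1), centred on that gene's mean over the 6 libraries (vertical axis, log2 units). Circles are Kel, Ermap, Btnl10, Rhag and Rhd, which fall lowest in DT mouse 2 among DT lungs and in PBS mouse 2 among PBS lungs; crosses are Xk, which stays near 0.

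Divided by exonic length, the mean levels in DT lungs followed the order Kel (4.56 ± 1.17 RPM per kb), Ermap (4.14 ± 1.21), Btnl10 (3.30 ± 1.05), Rhag (2.93 ± 0.524) and Rhd (2.51 ± 0.537), with Xk last at 2.23 ± 0.135 RPM per kb. No neighbours in that order differed by more than the larger of their SDs, but its ends did: the lowest DT lung of Kel, at 3.27 RPM per kb, lay above the highest DT lung of Rhd, at 3.07 RPM per kb. In PBS lungs Xk came first, at 2.04 ± 0.305 RPM per kb, and the others followed at 0.631 ± 0.146 for Ermap, 0.523 ± 0.371 for Kel, 0.485 ± 0.231 for Rhag, 0.470 ± 0.136 for Rhd and 0.276 ± 0.229 for Btnl10. Only the step between Xk and Ermap was larger than the larger SD of its neighbours. Summed, the 5 genes without Xk gave 77.7, 45.1 and 61.2 RPM in DT mice 1 to 3 and 11.0, 4.74 and 8.28 RPM in PBS mice 1 to 3.

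Genes whose profile over the 6 libraries lay closest to these were sought as the smallest root mean square difference in centred log2(RPM + 1). Among the closest to the mean profile of the 6 genes were the transcription factor gene Gfi1b (0.16), Hbq1b, a theta globin gene (0.17), and Tspo2 (0.18), where the median gene of the 16702 compared lay at 0.97. The measure spans both groups, so closeness mostly restates a like fold change. Kel was closest to Cldn13 and Epb42, Btnl10 to Klf1 and Epb42, and Cldn13 was also among those closest to Ermap. Rhag was closest to Hbq1b and Gfi1b, and Rhd to Add2 and Gata1. Cep295 was among the closest to Xk (0.04), but 13500 of the 16702 genes lay within 0.25 of it, since its profile is nearly flat. Among the 6 themselves, Kel and Btnl10 were closest (0.21), followed by Rhag and Rhd (0.30), while Kel and Xk, whose proteins are bonded, lay 1.29 apart.

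The lists here and below were chosen with earlier results of these data known, so their counts, shares and p-values are descriptions. Of 38 genes of other blood group systems, 35 could be tested, 2 rose and 0 fell, and their median log2 fold change was 0.06. The 2 were 5.71% of the 35, beside 0.275% of all genes. At an unadjusted p under 0.05 there were 5 (14.3%), beside 9.03% of all genes. Among the 2 that rose was Slc4a1, the band 3 exchanger of the Diego system. Slc4a1 had levels of 88.7, 71.0 and 70.8 RPM in DT lungs, against 13.2, 16.4 and 27.5 RPM in PBS lungs (log2 fold change 2.02 ± 0.23, limma adjusted p = 0.0135). That call was lost without DT mouse 1 (adjusted p = 0.15) and without DT mouse 3 (adjusted p = 0.0637), and 0 of the 35 passed when either of these mice was left out.

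Other carriers of blood group antigens had smaller differences, and none named here passed. Gypc, the glycophorin of the Gerbich system, differed by 0.03 ± 0.06 on the log2 scale, Aqp1, the Colton water channel, by 0.03 ± 0.05, and Bsg, the Ok antigen, by 0.04 ± 0.05. The Gypc value turned to -0.01 without DT mouse 3 and that of Aqp1 to -0.02 without DT mouse 1. Ackr1, the Duffy chemokine receptor, did not pass (log2 fold change 0.69 ± 0.20, adjusted p = 0.353), although it lay higher in all 3 DT lungs, at 4.57 ± 0.56 RPM in DT and 2.51 ± 0.848 RPM in PBS. Icam4, the LW antigen that sits with Rh, likewise stood at 5.06 ± 0.463 RPM in DT and 3.40 ± 0.43 RPM in PBS (0.46 ± 0.14, adjusted p = 0.395). Fut2, a fucosyltransferase of the H and secretor antigens, had a log2 fold change of 0.83 ± 0.28 (adjusted p = 0.45).

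Among the genes of 11 proteins known to sit with Rh, Kell or XK in or at the membrane, 3 rose in RNA and 0 fell, with a median of 0.20. The 3 were 27.3% of the 11, beside 0.275% of all genes. Epb42, the protein 4.2 that links band 3 and the Rh complex to the skeleton, had levels of 28.8, 18.5 and 22.0 RPM in DT lungs, against 3.33, 1.71 and 2.31 RPM in PBS lungs (log2 fold change 2.81 ± 0.21, adjusted p = 0.0058, or 0.0673 without DT mouse 1). Slc4a1, given above, was also among the 3. Ank1, the ankyrin below band 3, differed by 0.20 ± 0.15, and Vps13a, the lipid transfer partner of XK, by 0.24 ± 0.18, and neither passed. Without DT mouse 1 none of the 3 passed, and without DT mouse 3 only Epb42 did.

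Relatives of the 6 genes by sequence did not pass, nor did the endothelin genes, which were listed with the Kell relatives and are not relatives themselves. Of 37 listed, endothelins included, 16 were tested and 0 passed with limma or limma-voom. Just 1 had an unadjusted p under 0.05 with either, and the median log2 fold change was 0.03. That 1 was Mmel1, a peptidase of the Kell family (0.66 ± 0.21, adjusted p = 0.42), at 0.835, 1.06 and 1.52 RPM in DT lungs and 0.721, 0.107 and 0.262 RPM in PBS lungs. Ece1, the endothelin-converting enzyme and a Kell relative, stood at 169 ± 8.38 RPM in DT and 165 ± 3.83 RPM in PBS (log2 fold change 0.03 ± 0.05, or -0.01 without DT mouse 1). The endothelin gene Edn3, whose precursor human Kell cleaves, differed by -0.17 ± 0.07, and Edn1 by -0.01 ± 0.06 (0.06 without PBS mouse 1). Of the XK relatives, the scramblase gene Xkr8 differed by -0.12 ± 0.07, and of the Rh relatives Rhbg, an ammonia transporter, by -0.25 ± 0.11.

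Reads from the butyrophilin family were few: of 19 listed relatives 3 could be tested, and 8 others had no read in any library. Btnl9 stood at 9.78 ± 1.15 RPM in DT and 11.1 ± 1.45 RPM in PBS. Btn1a1, the milk fat butyrophilin, was too low to test, with 13, 7 and 13 reads in DT mice 1 to 3 and 2, 3 and 0 reads in PBS mice 1 to 3. These counts do not overlap, and Btn1a1 is named after its values were seen.

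**Figure D4:**
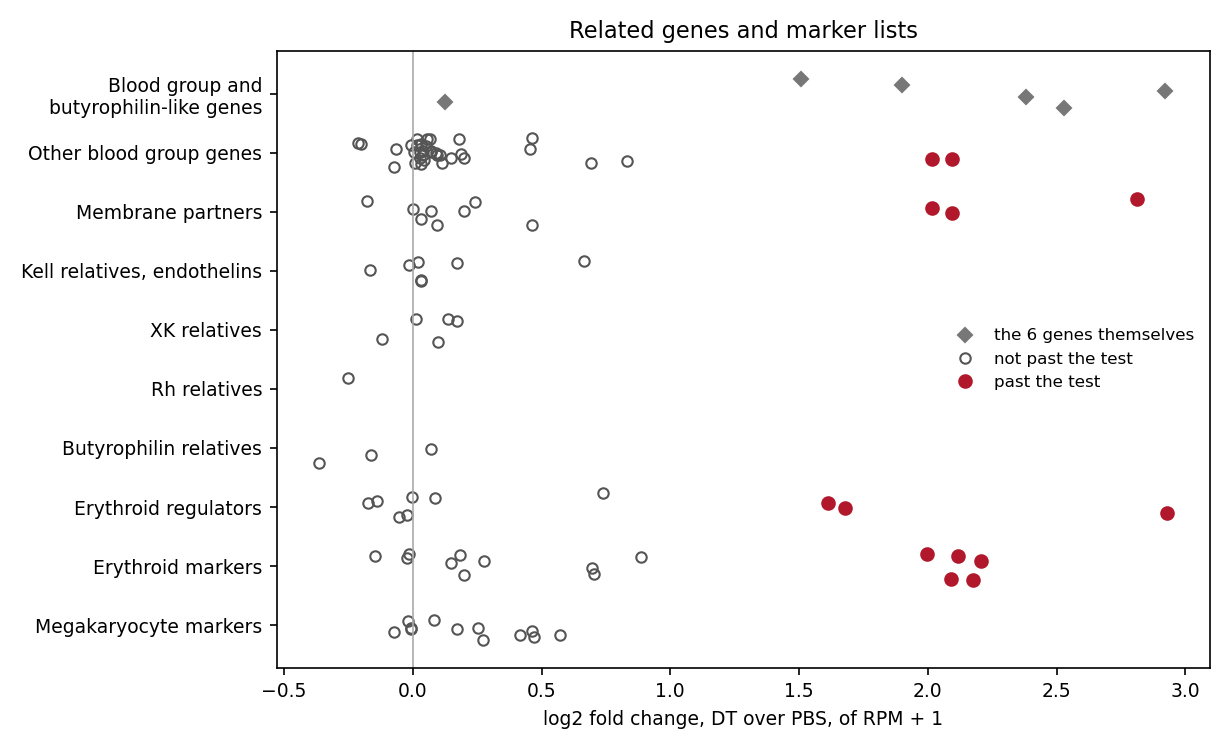
Log2 fold change of RPM + 1, DT over PBS (horizontal axis), of the 6 genes (grey diamonds, shown without their calls) and of each tested gene of the related and marker lists (circles, filled red where the limma adjusted p was below 0.05). Filled circles stand only among the other blood group genes (2), the membrane partners (3), the erythroid regulators (3) and the erythroid markers (5).

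Some regulators and markers of the red cell line rose as well, in lists that were likewise chosen with earlier results known. Of 10 regulators, 3 rose and 0 fell (median 0.04): Klf1 (log2 fold change 2.93 ± 0.34, adjusted p = 0.0145), Gata1 (1.68 ± 0.18, 0.0111) and Gfi1b (1.61 ± 0.19, 0.0145). The highest and lowest lungs of Klf1 were those of Btnl10, with 18.8, 13.5 and 15.6 RPM in DT mice 1 to 3 and 3.05, 0.533 and 0.734 RPM in PBS mice 1 to 3. The 3 were 30% of the 10, beside 0.275% of all genes. Of the 10, 5 had a positive and 5 a negative fold change. At an unadjusted p under 0.05 (limma) there were 5 (50%), beside 9.03% of all genes, and 1 of these, Lmo2, was lower (-0.14 ± 0.06). Epor, the erythropoietin receptor gene, differed by -0.17 ± 0.11. Of 15 tested markers, 5 rose (33.3%) and 0 fell, with a median of 0.70, and 10 (66.7%) had an unadjusted p under 0.05. Of the 15, 12 had a positive and 3 a negative fold change. The median was the value of Car1, at 0.919 ± 0.524 RPM in DT and 0.161 ± 0.104 RPM in PBS. Where at least 3 libraries had to reach 1 RPM, 14 markers were tested and their median was 0.49. Among those that rose were Tspo2, Trim10, Cldn13 and Hemgn, by 2.09 to 2.20. Hemgn, at an adjusted p of 0.038, kept its call under 4 of 15 alternatives and lost it under all 3 scalings (0.0694 to 0.0759). Cldn13 lost its call with the deposited values (0.0679) and limma-voom (0.057), and Klf1 with the deposited values (0.0515). Klf1, Cldn13, Hemgn and Car1 entered the test through their DT levels, since their PBS libraries alone would not have passed the filter on low values. With no such filter Klf1 kept its call (limma adjusted p = 0.0381) and Hemgn lost it (0.0838). The calls of all 8 genes ended without DT mouse 1, and 3 of the 8, Tspo2 and Trim10 among them, passed without DT mouse 3.

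The adult globin genes Hba-a1 and Hbb-bs did not pass the test. Hba-a1 stood at 16.7 ± 2.02 RPM in DT and 14.6 ± 1.45 RPM in PBS (log2 fold change 0.18 ± 0.12), and Hbb-bs at 9.54 ± 1.30 RPM in DT and 10.6 ± 0.868 RPM in PBS (-0.15 ± 0.12). Globin genes have near-identical copies, between which reads could be split. The densest library held 0.39 reads per exonic base for Hba-a1 and 0.273 for Hbb-bs, against 0.166 for Sftpc. Whether duplicate reads had been removed was not known, and whether that held down globin levels or their difference between groups was not tested. These values therefore do not show that globin RNA was unchanged. The summed level of the 15 erythroid markers was 401 to 479 RPM in DT lungs and 294 to 338 RPM in PBS lungs, and none of the 15 was without reads. The part of these markers' difference in that of the 5 membrane genes was not tested.

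Megakaryocytes share regulators with red cells and can hold some of the same transcripts. Of 12 megakaryocyte and platelet markers, 0 rose or fell with limma or limma-voom, and 0 had an unadjusted p under 0.05 with either. Their median log2 fold change was 0.21 and their summed level 56.8 to 99.3 RPM in DT lungs and 56.4 to 72.9 RPM in PBS lungs, which overlap. The median moved with the mice: it was 0.41 without DT mouse 1 and 0.02 without DT mouse 3, and 0 of the 12 passed either way. The integrin gene Itga2b differed by 0.47 ± 0.21 (0.71 without DT mouse 1 and 0.34 without DT mouse 3) and the platelet factor gene Pf4 by 0.08 ± 0.12.

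Genes beside the 6 on their chromosomes were examined next. Of 13 nearest or overlapping genes, 8 could be tested, and 0 passed with limma, with 0 at an unadjusted p under 0.05. Llcfc1 and Olfr459, the neighbours of Kel, had no read in any library, so nothing beside Kel was tested. Beside Xk only Lancl3 could be tested, and beside Btnl10 only Rnf187. Beside Ermap, Zfp691 stood at 19.2 ± 0.729 RPM in DT and 19.9 ± 0.101 RPM in PBS, and Svbp at 13.1 ± 0.863 RPM in DT and 13.8 ± 0.914 RPM in PBS. Beside Rhd, Maco1 differed by -0.07 ± 0.05 on the log2 scale and Tmem50a by 0.10 ± 0.07, and beside Btnl10, Rnf187 differed by 0.09 ± 0.05. Only Xk overlapped another listed gene, 1700012L04Rik, which had at most 2 reads in any library, so reads shared between listed genes could change little here. Reads from unlisted antisense transcripts could not be separated, since the use of strand was not known.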

How the data were processed

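Per the submitters' processing notes, FastQC, Trimmomatic and the build mm10 were used, without versions. Libraries were made with a kit for messenger RNA, per the labels' protocols. The aligner, the counting program, any removal of duplicate reads and the use of strand were not given in the sources used here. Values were log2 RPM, deposited by the authors for 25965 genes. Above the lowest value, 100% of linear values were whole multiples of 1 read (tolerance 0.1%), which gave reads and total depth per library. Genes with no read held a floor of 0.9 reads. A count of 0 allows up to 3 reads (0.157 to 0.179 RPM), for counting error only. Of the identifiers, 25035 matched GENCODE M21, the source of the symbols and of the exonic lengths (the union of exons), and 65 rows repeated an identifier. Promoter windows came from RefSeq and matched all 6 genes. A sheet of positions and a sheet repeating the group means were not used.

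Groups came from the sample titles. Nothing in the labels says whether libraries came from separate cages or days. The p-values set the difference between groups against the variance within them, moderated over all genes tested. They cannot tell treatment apart from a cage or day that differed between the groups. The test was limma 3.58.1 in R 4.3.3 on log2(RPM + 1) with a mean-variance trend, 3 DT against 3 PBS, 2-sided, with Benjamini-Hochberg adjustment over 16708 genes that reached 0.538 RPM (10 reads in the library of median depth) in at least 3 libraries. All 6 genes passed this filter, and all but Btnl10 would have passed on the PBS libraries alone. Some other named genes would not have, among them Klf1, Cldn13, Hemgn and Mmel1. Fold changes on this scale understate those of low genes. The model was also run on simulated counts, in which the scatter of a gene depended only on its level. Genes with more scatter than others of their level were not covered by it, and no result here rests on it. The 6 genes and all lists were chosen with earlier results of these data known. Named genes followed a rule: the 6 genes, up to 4 called genes or else the most abundant 2 of each list, the nearest genes on either side, the closest profiles and a fixed set of red and dendritic cell genes, and not every gene it covers is named; some are not reported here. Alternatives were other scalings, filters and pseudocounts, the deposited values, limma-voom, a replicate block and leaving out each mouse. Plots were drawn with matplotlib 3.10.9.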

Additional observations from a re-analysis of the deposited data

How the results depend on the processing

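The direction of each of the 6 genes was the same under all 15 alternatives, and their calls were less stable than their fold changes. With 3 mice a group, 1 mouse can decide a call. Without each mouse in turn, 0 to 5 of the 6 genes passed, 0 to 56 of all genes were higher and 0 to 90 lower, where 46 and 1 were with all mice. Likewise 0 to 2 other blood group genes passed (2 with all mice), 0 to 3 membrane partners (3) and 0 to 9 erythroid regulators and markers (8). Calls of the 6 genes are descriptions, since they were chosen on this contrast. Limma-voom on the recovered reads called 3 of them (Ermap, Rhag and Rhd), and the deposited values called 4 of the 6 and 5 erythroid genes. Median-of-ratios, trimmed-mean and upper-quartile scaling called 0 genes lower. The cause of these changes was not tested, beyond the smaller number of mice where 1 was left out.

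The labels do not say that replicate numbers pair the mice. Deviations of same-numbered mice from their group means correlated at 0.08, 0.27 and -0.10, and only DT mouse 2 correlated best with its own number. With so few mice these correlations cannot settle whether the numbers mark pairs. With the replicate block, 8 genes were higher and 0 lower, and 3 of the 6 genes (Kel, Ermap and Btnl10), 1 other blood group gene and 3 erythroid genes passed. Among 62 named genes and 929 values, 5 turned direction, all without 1 mouse and all near 0. Without each mouse in turn the log2 fold change ranged from -0.0059 to 0.058 for Gypc, from -0.018 to 0.065 for Aqp1, from -0.0074 to 0.062 for Ece1 and from -0.058 to 0.055 for Edn1, which also turned to 0.00058. Depth limits Rhd, Rhag, Kel and Btnl10 most in PBS lungs, at 8 to 47 reads.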
